A study of Mus musculus with 48 samples.

Results

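The genes described here make or receive signals that act on blood vessels and on neighbouring cells: the endothelin genes Edn1, Ednra, Ednrb and Ece1, the angiotensin genes Agt and Agtr1a, the prostanoid genes Ptgs1, Ptgs2 and Ptgis, and the neuropeptide gene Vip. All probe sets listed under these 10 symbols in the platform annotation were taken, which gave 13 of the 45037 probe sets on the array for 8 of the 18193 genes named there, and the brightest probe set of each gene, by its mean over all arrays, was used to represent it. Ednra and Ptgs1 had no probe set under their symbols and were not analysed here. The mean level therefore chose the probe sets and is given as a description only.

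NIH3T3 cells, a mouse embryonic fibroblast line, were grown to confluence, shocked with forskolin, which raises cyclic AMP and synchronises the circadian clocks of the culture, and collected every hour from 20 to 67 h afterwards. Each hour had 1 array, 48 in all, so that there were no replicates at any hour, and errors are those of a fit over the series or the SD over neighbouring hours. No untreated culture and no hour before 20 were analysed here, so the effect of forskolin cannot be told apart from time in a confluent dish. Values are log2 of normalised array intensity, and levels are read only within a probe set. In bulk RNA, fewer cells making a transcript and less of it per cell cannot be told apart.

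Array medians lay between 6.58 and 6.71, and the median of all probe set means was 6.67. In 10 arrays, 7 of them in the first 24 h, the beta-actin control signal at the 3′ end exceeded that at the 5′ end by more than 1.4 on the log2 scale, against a median of 1.13, with the highest value, 2.42, at hour 36. The 10 fibroblast markers examined (among them Col1a1, Vim and Pdgfra) all averaged between 16.40 and 19.01. All 9 endothelial markers averaged between 5.34 and 5.63, although Tek reached 7.10 on 1 array, and all 5 epithelial markers averaged at or below 5.59. Of 6 smooth muscle markers, Acta2, Tagln and Smtn were well above the median of all probe sets, whereas Myh11, Des and Cnn1 averaged at or below 5.72. Of the 6 macrophage markers, Cd14 and Cd68 lay above that median, and of the 5 neuronal markers Snap25 and Map2 did. Csf1r, a macrophage receptor gene, averaged 5.72 but went from 6.71 in hours 20 to 25 to 5.48 in hours 62 to 67, and its trend passed (limma, adjusted p = 0.038), as did that of Cd14 downwards (adjusted p = 1.1e-08). Markers of the other lists moved too, as did 30.4% of all probe sets and 52.8% of those above the median. Of the 10 fibroblast markers 5 rose and 3 fell, Thy1 most (-0.0188 per hour, adjusted p = 2.3e-22), and the smooth muscle markers Acta2 (-0.0056, adjusted p = 7.7e-06) and Tagln (-0.0128, adjusted p = 0.0015) and the neuronal marker Snap25 (-0.0167, adjusted p = 8.0e-17) fell, whereas Map2 rose (0.0183, adjusted p = 4.2e-07). The part of other cell types in the results was not tested.

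Endothelin-1 is made as a long precursor that furin-like proteases and then endothelin-converting enzyme cut to the active peptide, which constricts vessels through receptors encoded by Ednra and Ednrb. Angiotensinogen, the product of Agt, is the precursor from which renin and angiotensin-converting enzyme release angiotensin II, the ligand of the receptor encoded by Agtr1a. The cyclooxygenases encoded by Ptgs1 and Ptgs2 turn arachidonic acid into the prostaglandin from which terminal synthases such as Ptgis make prostacyclin and its relatives, and Vip encodes a secreted peptide that relaxes smooth muscle and, in the brain, couples the neurons of the central clock. Transcription of Vip and Ptgs2 is known to respond to cyclic AMP through the factor CREB.

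Because the cells had been shocked with forskolin, the promoter windows of the members in RefSeq (GRCm38.p6, 250 bases before to 50 after each start) were searched for the letters of the cyclic AMP response element. Windows were found for 8 of the 10 genes, Agtr1a and Ptgis having none in the table. The full element TGACGTCA was in none of them and in 2.03% of all genes' windows, and its core TGACG, on either strand, was in those of Vip, Ptgs2 and Ednrb and in 23.0% of all. The windows of Vip and Ptgs2 are shown in part since both transcripts fell during the series, with the core element in capitals, together with TATAAA in Vip and an overlapping E-box, CACGTG, in Ptgs2.
Vip, chr10:5639128-5639217, plus strand, bases -90 to -1 from the start: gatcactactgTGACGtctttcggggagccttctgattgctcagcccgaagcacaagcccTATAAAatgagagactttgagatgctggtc
Ptgs2, chr1:150099961-150100060, plus strand, bases -70 to 30 from the start: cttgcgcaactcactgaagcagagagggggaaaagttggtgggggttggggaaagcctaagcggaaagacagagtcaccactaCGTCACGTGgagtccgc
In Vip the core began 79 bases before the annotated start and TATAAA 30 bases before it, the latter being in 15.7% of all windows and, among the members, also in that of Agt. In Ptgs2 the core lay on the opposite strand, from base 14 to 18 after the annotated start, and shared 2 bases with the E-box at 17 to 22. The E-box was in 8.09% of all windows and, among the members, also in 1 window of Ece1. The windows of Edn1 held none of these letters, nor the AP-1 site TGACTCA (5.95% of all) or the D-box TTATGTAA (1.11%), which were absent from every member's windows. These matches describe the letters only, and binding was not measured.

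Of the 8 measured genes some moved, some lay near the bottom of the scale, and Ece1 did neither. Edn1 rose, Ptgis rose slightly, Vip and Ptgs2 fell, Agt rose and then fell, and Ece1 showed no trend. Ednrb and Agtr1a stayed at background-like values throughout. The linear trend over 48 h, fitted with limma beside a 24 h cosine, passed an adjusted p of 0.05 for 4 of the 8 genes, 2 in each direction. Of all probe sets tested, 30.4% passed, 14.2% upwards and 16.2% downwards, and of those whose mean exceeded the middle of the array 52.8% did.

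**Figure D1:**
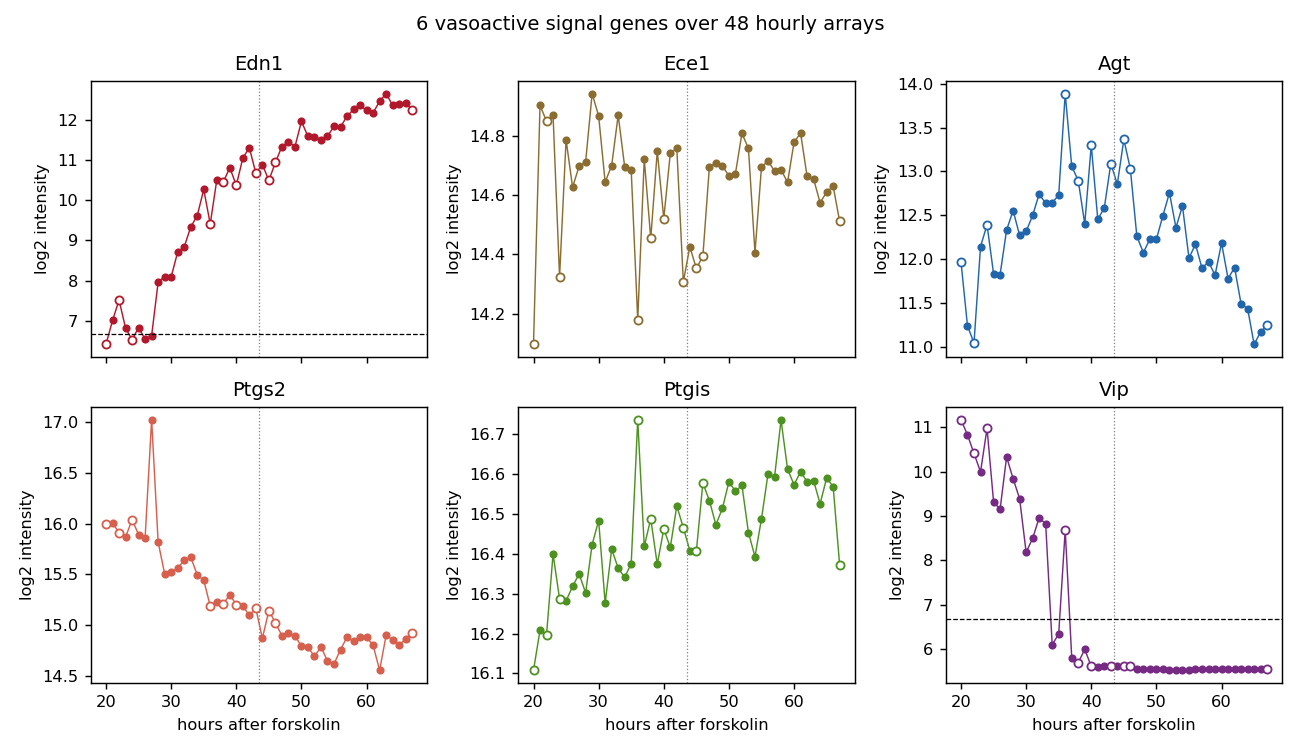
Log2 intensity (vertical axes, each on its own scale) of the leading probe sets of Edn1, Ece1, Agt, Ptgs2, Ptgis and Vip against hours after forskolin, 1 point per array. Open points are the 10 arrays with a beta-actin difference above 1.4, the dotted line separates hours 20 to 43 from hours 44 to 67, and the dashed line is the median of all probe set means. Edn1 climbs from 6.42 to 12.65, Vip drops from 11.17 to about 5.55, Agt peaks at hour 36 and Ptgs2 has a single high value at hour 27.

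Edn1, the gene for endothelin-1, showed the largest rise of the set. Its values over the 48 arrays ran from 6.42 at hour 20 through a median of 10.91 to 12.65 at hour 63. In hours 20 to 25 they lay between 6.42 and 7.52 (mean 6.86 ± 0.39, SD, n = 6 hours), and in hours 62 to 67 between 12.25 and 12.65 (12.42 ± 0.13, n = 6), which is 47.2-fold apart with no overlap. The early values were near the middle of the array, with 4 of the 8 arrays from hour 20 to 27 below it. That middle, 6.67, lay not far above the bottom of the scale and far below the lowest upper quartile of any array, 13.17. How far background entered the early values was not tested. The 47.2-fold rise, and slopes and fold changes that include these hours, are therefore given as measured only. From hour 28 onwards no value was below 7.96, and from hour 37 onwards every value was above 9.64, midway between the first and the last 6 h. The slope over the whole series was 0.127 ± 0.0074 log2 per hour (SE; limma, adjusted p = 4.3e-19), the fifth largest rise among the 19213 probe sets with 1 symbol and a mean over 6.67. At matched hours Edn1 was higher on the second day in 24 of 24 pairs, by 3.09 ± 0.25 (limma, adjusted p = 5.8e-10), or 8.50-fold.

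On the log2 scale the rise of Edn1 slowed with time. A quadratic term of -1.85 ± 0.18 (log2 at 24 h from the centre of the series; limma, adjusted p = 3.0e-10) accompanied the trend. Curvature passed for 4 of the 8 genes, against 7.59% of all probe sets. All 4 lay above the median of all probe sets. When only the 22518 probe sets above it were tested, 3865 passed, the same 4 genes among them. Within hours 20 to 43 the slope was 0.227 ± 0.012 per hour, and within hours 44 to 67 it was 0.0731 ± 0.012 (limma, adjusted p = 1.6e-05). The slope differed between the days by -0.154 ± 0.017 (adjusted p = 4.4e-09). On linear values the curvature had the opposite sign and also passed (965 intensity units, adjusted p = 0.0032), so that the slowing holds for fold change and not for intensity. Over all probe sets, 13.8% had a slope in the first day that passed, 10.8% in the second, and 6.92% differed between the days.

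The converting enzyme of the endothelin pathway showed no such trend, and no receptor of it was measured above background. Ece1, which encodes the converting enzyme, ranged from 14.10 at hour 20 through a median of 14.69 to 14.94 at hour 29, and its slope was near 0 (-2.6e-05 ± 0.0020, limma, adjusted p = 0.99). Its mean over hours 20 to 25 was 14.64 ± 0.34 (SD, n = 6 hours) and over hours 62 to 67 it was 14.61 ± 0.057, so that these hours overlapped. It was higher on the second day in 11 of 24 matched pairs. Its other 2 probe sets averaged 5.51 and 5.44. Ednrb, the gene for the endothelin receptor type B, had 3 probe sets that averaged 5.51, 5.43 and 5.37, and the brightest moved between 5.49 and 5.53 only. The level of Ednrb transcript could not be told from background on these arrays. Of the 5 other endothelin genes examined, Ece2, a related converting enzyme, ranged from 13.39 to 14.28 without a trend that passed (0.00074 ± 0.0018 per hour, adjusted p = 0.73), and the genes for the other endothelins, Edn2 and Edn3, and for the peptide-degrading proteases Mme and Mmel1 averaged 5.49, 5.48, 5.60 and 5.37.

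What variation Ece1 had went with the beta-actin control. On the 10 arrays with a difference above 1.4, Ece1 lay between 14.10 and 14.85 with a median of 14.37, and on the other 38 arrays between 14.41 and 14.94 with a median of 14.70. With that difference as a covariate, Ece1 changed by -0.466 ± 0.049 per unit (limma, adjusted p = 8.5e-11). Agt moved the opposite way, by 0.905 ± 0.249 (adjusted p = 0.0026), and no other member passed, against 36.7% of all probe sets. Once the covariate was in the model, the slope of Ece1 was -0.0030 per hour (adjusted p = 0.050, just under the threshold), and without the 10 arrays it was -0.0037 (adjusted p = 0.031).

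**Figure D2:**
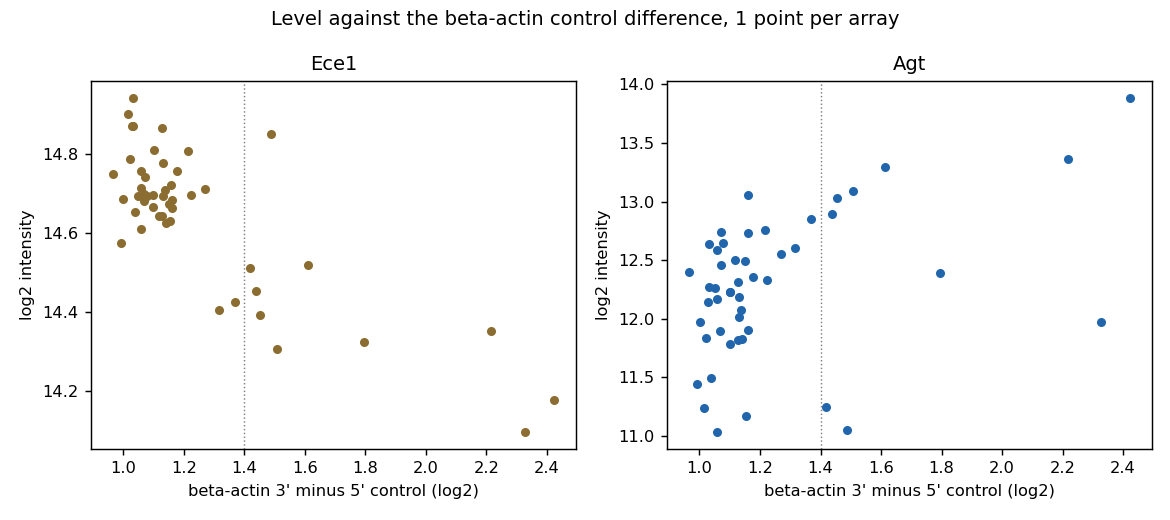
Log2 intensity of Ece1 (left) and Agt (right) against the beta-actin control difference, 3′ minus 5′ signal in log2, with 1 point per array. The dotted line marks 1.4, beyond which 10 arrays lie. Ece1 is lower on most of those arrays (median 14.37 against 14.70), whereas Agt reaches its highest values there.

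Agt, the angiotensinogen gene, rose through the first day and fell through the second. Its values ran from 11.03 at hour 65 through a median of 12.29 to 13.89 at hour 36. Means over 6 h went from 11.77 ± 0.52 (SD, n = 6 hours) in hours 20 to 25 to 12.95 ± 0.48 in hours 32 to 37, and then down to 11.38 ± 0.31 in hours 62 to 67. The lowest value of hours 32 to 37, 12.64, was above the highest of hours 20 to 25, 12.39, and above the highest of hours 62 to 67, 11.91. The peak 6 h were 2.26-fold above the first and 2.97-fold above the last. The slope was 0.0635 ± 0.011 per hour in the first day (limma, adjusted p = 1.2e-05) and -0.0722 ± 0.011 in the second (adjusted p = 3.2e-06), and the difference between the days was -0.136 ± 0.015 (adjusted p = 8.0e-09). Such a rise followed by a fall, each passing the test, was found in 0.304% of all probe sets. As the slopes within each day were added after the data were seen, this share is a description only.

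The curvature of Agt was -1.62 ± 0.17 (limma, adjusted p = 1.8e-09), and 14 of the 19213 probe sets ranked above were bent downwards more strongly. A straight line missed this shape, the slope over 48 h being -0.0152 ± 0.0067 (adjusted p = 0.073). The second day minus the first was -0.35 ± 0.22 (adjusted p = 0.19), with 14 of 24 matched pairs lower. The peak at hour 36 fell on the array with the highest beta-actin difference, and its neighbours at hours 35 and 37 read 12.73 and 13.06. Without the 10 arrays of high difference the slope was 0.0491 ± 0.012 in the first day (adjusted p = 0.0027) and -0.0622 ± 0.010 in the second (adjusted p = 5.2e-05).

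Agtr1a, the gene for the angiotensin receptor of type 1a, lay between 5.41 and 5.44 on all 48 arrays and could not be told from background. Agtr2, which encodes the type 2 receptor, was measured well above it and rose from 17.24 ± 0.096 in hours 20 to 25 to 17.71 ± 0.057 in hours 62 to 67 (SD, n = 6 hours each), a slope of 0.0102 ± 0.00087 per hour (limma, adjusted p = 1.3e-13). Of the 9 other renin-angiotensin genes measured, 4 rose and none fell, against 14.2% up and 16.2% down over all probe sets. Beside Agtr2 these were Anpep, an aminopeptidase that trims angiotensin III, which went from 6.17 to 8.23 between the first and last 6 h (0.0630 ± 0.0065 per hour, adjusted p = 4.2e-11), Ace, which encodes the angiotensin-converting enzyme (0.0118 ± 0.0040, adjusted p = 0.021), and Atp6ap2, the prorenin receptor (0.00941 ± 0.0012, adjusted p = 1.4e-08). Agtrap, whose product binds the type 1 receptor, had a slope of -0.0022 ± 0.0023 (adjusted p = 0.40). Agtr1b, Mas1, Enpep and Cma1 averaged between 5.41 and 5.68.

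Ptgs2, the inducible cyclooxygenase gene, fell over the first day and then levelled off. Its values ran from 14.56 at hour 62 through a median of 15.12 to 17.02 at hour 27. In hours 20 to 25 all values lay between 15.87 and 16.04 (15.95 ± 0.069, SD, n = 6 hours), and in hours 62 to 67 between 14.56 and 14.93 (14.82 ± 0.13), a 2.19-fold fall with no overlap. The slope over the series was -0.0311 ± 0.0030 per hour (limma, adjusted p = 6.1e-12), and the second day was lower in 24 of 24 matched pairs, by 0.78 on the log2 scale (-0.78 ± 0.086, adjusted p = 1.1e-07). Differences between the days passed for 4 of the 8 genes, against 23.9% of all probe sets. When only the 22518 probe sets above the median of all were tested, 10690 passed, the same 4 genes among them. The slope was -0.0472 ± 0.0063 in the first day (adjusted p = 1.3e-07) and -0.0047 ± 0.0063 in the second (adjusted p = 0.56), a difference of 0.0425 ± 0.0089 (adjusted p = 0.0012), and curvature was 0.51 ± 0.11 (adjusted p = 0.0016).

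A single hour departed from this course. At hour 27 Ptgs2 read 17.02, against 15.51 to 15.89 at hours 25, 26, 28 and 29, or 1.25 above their mean. Its second probe set, which averaged 6.0 and was above the median of all probe sets in 4 arrays only, read 10.22 against 5.76 to 6.20, or 4.21 higher. On the same array Vip was 0.90 above its neighbours and Edn1 0.73 below, whereas Agt, Ptgis and Ece1 differed by 0.21, 0.018 and -0.070. In all, 318 probe sets, 0.706% of the array, stood more than 1 from these neighbours at that hour, and 8 of the other hours had more. Named after their values were seen, the probe sets with the largest excess at hour 27 among those above the median of all belonged to Saa3 (4.29), Abcc3 (3.55), Mgarp (3.47) and Cxcl1 (3.21), of which Saa3 encodes an acute-phase protein and Cxcl1 a chemokine. The beta-actin difference of this array was 1.22. No second culture was sampled at hour 27, and the source of the difference was not tested. Without this array the slope of Ptgs2 over the series was -0.0294 per hour (limma, adjusted p = 9.6e-17), and no leading probe set changed its side of the threshold for the trend, the 24 h cosine, curvature or the difference between the days. The difference between the slopes of the days in its second probe set passed only without this array (adjusted p = 0.0025 against 0.089).

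Ptgis, which encodes prostacyclin synthase, moved least among the genes that passed. It ran from 16.11 at hour 20 through a median of 16.46 to 16.74 at hour 36, with means of 16.25 ± 0.10 in hours 20 to 25 and 16.54 ± 0.084 in hours 62 to 67 (SD, n = 6 hours each), or 1.22-fold, and values of 16.11 to 16.40 and 16.37 to 16.59 that overlapped. The slope was 0.00672 ± 0.0010 per hour (limma, adjusted p = 4.9e-07), and 21 of 24 matched pairs were higher on the second day, by 0.16 ± 0.028 (adjusted p = 8.0e-05). Its slope passed in the first day (0.0124 ± 0.0026, adjusted p = 0.00039) and not in the second (0.0035 ± 0.0026, adjusted p = 0.33), but the difference between the days did not pass (-0.0089 ± 0.0037, adjusted p = 0.089). Ptgs2 and Ptgis, successive enzymes on the way to prostacyclin, thus had slopes of opposite sign.

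Of the 22 other prostanoid genes measured, 3 rose and 4 fell, shares near the 14.2% up and 16.2% down of all probe sets. A mean over 6.67, the median of all, was found for 12, among them all 7 that passed. Of all probe sets with such a mean, 52.8% passed. The receptors among these 12 were Ptgir for prostacyclin, Ptgfr for prostaglandin F2 alpha and Ptger4 for prostaglandin E2. Ptgir fell from 10.20 to 8.87 between the first and last 6 h (-0.0317 ± 0.0053 per hour, limma, adjusted p = 4.0e-06) and Ptgfr from 16.27 to 15.51 (-0.0185 ± 0.00091, adjusted p = 8.7e-22), whereas Ptger4 had a slope of -0.0019 ± 0.0011 (adjusted p = 0.14). Of the transporters, Slco2a1, which takes prostaglandins up, fell from 14.82 to 13.81 (-0.0212 ± 0.0013, adjusted p = 6.7e-18), and Abcc4, which exports them, from 10.27 to 9.17 (-0.0185 ± 0.0044, adjusted p = 0.00077). Ptgfrn, a membrane protein that inhibits binding of prostaglandin F2 alpha to its receptor, rose from 15.68 to 16.42 (0.0193 ± 0.0012, adjusted p = 1.2e-17). Among the terminal synthases, Hpgds, for prostaglandin D2, rose from 7.85 to 9.67 (0.0354 ± 0.0095, adjusted p = 0.0030), and Ptges and Ptges2, for prostaglandin E2, had slopes of -0.0021 ± 0.0021 (adjusted p = 0.39) and -0.0056 ± 0.0052 (adjusted p = 0.34). Pla2g4a, the phospholipase that frees arachidonic acid, had a slope of -0.00079 ± 0.0018 (adjusted p = 0.71). The reductase gene Ptgr2 also rose (0.0085 ± 0.0016, adjusted p = 3.8e-05).

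Vip, the gene for vasoactive intestinal peptide, was well above background early and fell to the bottom of the scale within the first day. Its values over the 48 arrays ran from 5.52 at hour 53 through a median of 5.61 to 11.17 at hour 20, and 15 arrays were above the median of all probe sets, none of them later than hour 36. In hours 20 to 25 it lay between 9.32 and 11.17 (10.45 ± 0.69, SD, n = 6 hours), and no value to hour 33 was below 8.18. It then read 6.10 and 6.34 at hours 34 and 35, 8.68 at hour 36 and 5.81 at hour 37. From hour 37 to 67 all 31 values were between 5.52 and 6.0, with a median of 5.55. As the late values were at the bottom of the scale, the fall from the first to the last 6 h, 29.9-fold as measured, says nothing of changes below background.

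The slope of Vip was -0.111 ± 0.012 per hour (limma, adjusted p = 3.0e-10), and the second day was lower in 24 of 24 matched pairs, by 2.65 on the log2 scale (-2.65 ± 0.41, adjusted p = 1.6e-05). Every value of the second day was at the bottom of the scale, between 5.52 and 5.61, so this difference is a lower bound. Curvature was 3.19 ± 0.26 (adjusted p = 3.0e-12), where the fall met the bottom of the scale. The fall that could be measured lay in the first day, with a fitted slope of -0.267 ± 0.016 per hour (adjusted p = 7.5e-18). In the second day it was -0.0017 ± 0.016 (adjusted p = 0.94), a difference of 0.266 ± 0.022 (adjusted p = 8.4e-12). The SE pooled both days, whose values had an SD of 2.03 in the first and 0.024 in the second. The first-day SE and p-value are therefore too small. The last hours of the first day, near the bottom of the scale, also entered its slope. The difference between the days was set by that bottom and says nothing of whether the fall slowed. Over hours 20 to 33, before values near the bottom, a straight line fell by 0.189 per hour (SE 0.036, 14 arrays), which is a halving of intensity in 5.28 h (4.44 to 6.52 h at 1 SE on either side). The end of that window was set by the values themselves, just before the drop to 6.10 at hour 34. The slope may therefore be too shallow and the halving time too long, and the SE does not cover this choice. The isolated values at hours 24 and 36, 10.97 and 8.68, fell on arrays with beta-actin differences of 1.80 and 2.42, although the covariate did not pass for Vip (0.41 ± 0.52, adjusted p = 0.77). The 4 other genes of this list, the related peptide gene Adcyap1 and the receptor genes Vipr1, Vipr2 and Adcyap1r1, averaged between 5.35 and 5.57 and none passed the trend test.

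**Figure D3:**
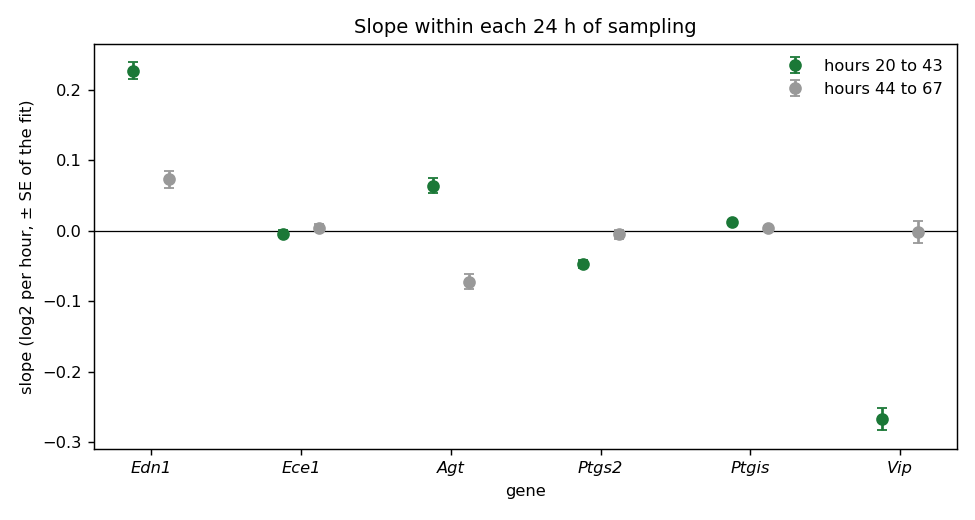
Slope in log2 per hour (vertical axis) within hours 20 to 43 and within hours 44 to 67 for the 6 genes named on the horizontal axis, with bars for ± 1 SE of the limma fit. Edn1 rises in both days, Agt changes from 0.0635 to -0.0722, and the slopes of Vip and Ptgs2 pass in the first day and not in the second, where Vip is at the bottom of the scale. As the SE pools both days, the first-day bar of Vip is too short.

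The study asked which transcripts cycle, and none of the 8 genes was called by a 24 h cosine or by both rhythm tests of the design. A cosine whose period was free between 20 and 30 h passed for 2 genes, Edn1 (limma, adjusted p = 0.014) and Vip (adjusted p = 0.0059), both at 30 h, the longest period allowed, against 5.36% of all probe sets. Each p-value was the smallest over the periods tried. It was adjusted over probe sets but not for that search, so it is too small. The 24 h cosine of the limma fit passed for 0 of the 8 after adjustment, against 0.293% of all probe sets. Before adjustment it also passed for 0, but the share of all probe sets there was not counted. Amplitudes from mean to peak were 0.33 ± 0.15 for Edn1 (adjusted p = 0.63), 0.27 ± 0.24 for Vip (adjusted p = 0.96), 0.23 ± 0.12 for Agt (adjusted p = 0.80), 0.089 ± 0.036 for Ece1 (adjusted p = 0.55), 0.039 ± 0.019 for Ptgis (adjusted p = 0.69) and 0.029 ± 0.054 for Ptgs2 (adjusted p = 0.96). By both a cosine search and Fisher's G-test with Storey q-values, 0 of the 8 were called at about 24, 12 or 8 h, against 0.198%, 0% and 0.0178% of all probe sets. At unadjusted p-values 0 were called too, again without a share of all probe sets. The strongest Fourier component was at 48 h, the whole length of the series, for 7 of the 8, Ece1 being the exception. The share of all probe sets was not counted, and Ednrb and Agtr1a lay at the bottom of the scale. The count therefore describes the reach of the test only. The G-test kept the linear trend and reads only the strongest component. For genes that moved steadily, its 0 therefore says little of shorter rhythms. With the trend removed before the G-test 0 were called too, but the strongest component stayed at 48 h for Edn1, Agt, Agtr1a, Ptgs2 and Vip. Here too the share of all probe sets was not counted. With a quadratic term beside the trend, 0 passed, against 0.322% of all probe sets, both after adjustment. The amplitudes were 0.36 for Edn1 (limma, adjusted p = 0.052) and 0.47 for Vip (adjusted p = 0.096). Before adjustment 3 genes were under 0.05, but the share of all probe sets there was not counted, so nothing is read from the 3.

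Signals that share target cells with the members were also read. Of 20 measured genes of nitric oxide, natriuretic peptide, kinin and adrenomedullin signalling, 5 rose and 3 fell, 2 of the latter (Nppc and Bdkrb1) with means of 5.43 and 5.41 and slopes of only -0.00019 and -0.00018 per hour. Over all probe sets 14.2% rose and 16.2% fell. A mean above the median of all was found for 8 of the 20, and 6 of these passed, against 52.8% of all probe sets with such a mean. Adm, which encodes the vasodilator adrenomedullin, rose from 15.75 to 16.63 between the first and last 6 h (0.0192 ± 0.0026 per hour, limma, adjusted p = 3.1e-08). Its receptor is built from the product of Calcrl and a Ramp protein. Calcrl rose (0.0161 ± 0.0027, adjusted p = 4.9e-06) and Ramp2 rose (0.0241 ± 0.0065, adjusted p = 0.0028), whereas Ramp3 fell from 16.45 to 15.38 (-0.0276 ± 0.0014, adjusted p = 3.3e-21). Gucy1a2, a subunit of the nitric oxide receptor, rose (0.0214 ± 0.0038, adjusted p = 1.3e-05), as did Npr2, the receptor of C-type natriuretic peptide (0.0121 ± 0.0016, adjusted p = 3.1e-08). The nitric oxide synthase genes Nos1, Nos2 and Nos3 averaged 5.60, 5.39 and 5.37. Over all 5 lists without the members, 19 of 60 measured genes passed, 12 up and 7 down, a share near that of all probe sets.

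**Figure D4:**
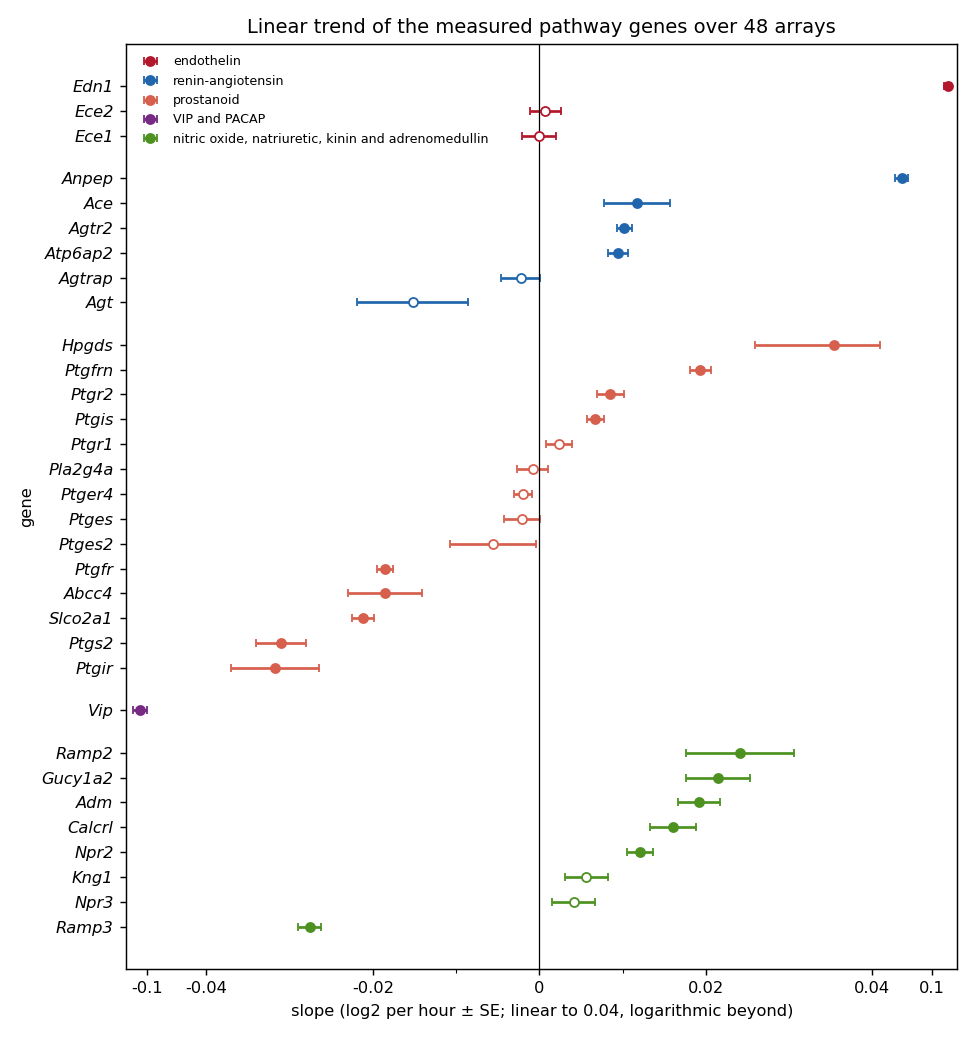
Slope over 48 arrays in log2 per hour (horizontal axis, linear to 0.04 and logarithmic beyond) with its SE for every listed gene whose probe set mean is above the median of all, grouped and coloured by list. Filled points passed an adjusted p of 0.05. Edn1 at 0.127 and Vip at -0.111 lie farthest from 0.

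The transcripts most like each member were found by Pearson correlation over the 48 arrays, which share their trend, so the values are descriptive. Edn1 was most like Ppargc1a (r = 0.979), Ankrd44 (0.979) and Inmt (0.977), and after removal of the linear trend like Osgin1 (0.824), Maf (0.823) and Kcnab1 (0.811). Ptgs2 was most like Ereg (0.963), which encodes the growth factor epiregulin, Cxcl1 (0.952) and Ptx3 (0.935), and Ereg (0.852) and Cxcl1 (0.804) also led without the trend, followed by G2e3 (0.759). The array of hour 27, where Ptgs2 stood 1.25 and this Cxcl1 probe set 2.88 above the neighbouring hours, was kept in. How far the likeness to Ptgs2 rests on that 1 array was not tested. Vip was most like Retnla (0.928), Nop2 (0.912) and Cenpl (0.906), and without the trend like Mllt11 (0.792), Retnla (0.739) and Klra17 (0.711). Agt was most like Aqp1 (0.870), Lss (0.862) and Mustn1 (0.858), and without the trend like Hspa4l (0.924), Clu (0.907) and Mustn1 (0.872). Ptgis was most like Stx8 (0.854), Atf5 (0.851) and Use1 (0.845), and without the trend like Aprt (0.750), Pdxk (0.732) and Pcolce (0.720). Ece1 was most like Raver1 (0.896), Igf2bp3 (0.890) and Chtop (0.887), and without the trend like Fam53c (0.923), Coro1c (0.922) and Nudt3 (0.913).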

How the data were processed

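The 48 Affymetrix mouse genome arrays were used as 1 time course, with the hour of each taken from its title. The treatment note gives 20 h since forskolin for every sample, against the titles, so the hours rest on the titles and the study's methods. The deposited values give 1 linear intensity for each probe set. The methods of the authors name GCRMA for expression and MAS5 for detection calls, whereas the submitters' processing notes name MAS5 alone, without a version. The scaling of the deposited intensity is not known, and log2 was taken without an added constant. Values near 5.4 on that scale form a common floor. The number of arrays limits the precision.

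All 45037 probe sets that are no controls entered each fit. Of these, 34945 had 1 gene symbol, 932 several and 9160 none, and current symbols were taken for 34754 through the gene identifiers. limma 3.58.1 in R 4.3.3 fitted slope and 24 h cosine together, then a quadratic term, the second day against the first with hour of the cycle as a block, and, added after seeing the data, the slope within each day. Adjustment was by Benjamini-Hochberg over all probe sets at 0.05. Rhythm was also tested by a cosine search from 6 to 30 h against 2000000 Gaussian null series, in place of COSOPT, and by Fisher's G-test, both with Storey q-values. In the main run the linear trend was removed for the cosine search only. The scripts were tested on simulated data. Python 3.11.15 with numpy 2.4.6, pandas 2.3.3 and matplotlib 3.10.9 was used.

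Members and gene lists were chosen with earlier results of these data known. Named are all members, up to 5 genes per wider list with the largest slope that passed and a mean over 6.67, the median of the array, receptors and enzymes of a member's step over that value, and the 3 genes most like each member. Alternatives covered normalisation, scale, filtering, averaging of probe sets, the beta-actin difference, hours 52 to 55 (which had a BioB spike control 0.90 higher), leaving out the first 6 h or single arrays, 3 h means and robust moderation.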

Additional observations from a re-analysis of the deposited data

How the results depend on the processing

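The trend passed for 4 or 5 of the 8 genes in the alternatives run, except without the 10 arrays of high beta-actin difference, where 8 passed, Agt (limma, adjusted p = 0.046) and Ece1 (0.031) among them, and 19838 of all probe sets against 13686. The 8 included Ednrb and Agtr1a, which stayed at the floor, so a trend that passed need not be a measured change. The cosine passed for 0 except with the best period of 20 to 30 h, where 2 passed, Edn1 (amplitude 0.57, adjusted p = 0.014) and Vip (0.99, adjusted p = 0.0059), both at the longest period allowed. Those 2 p-values were not corrected for the search over periods. Curvature passed for 3 to 6, except for 7 with a term for hours 52 to 55, the added genes being Ptgis, Ednrb and Agtr1a. Leaving out 1 array at a time gave 4 to 6 genes for the trend, 0 for the cosine, 4 to 7 for curvature and 4 for the days. The 7 came without the array of hour 21, when the same 3 genes were added and 17009 of all probe sets passed against 3419, and the 6 without that of hour 66 or 67. The days gave 4 or 5, both rhythm tests 0, and the wider lists 19, or 21 with all probe sets of a gene averaged. The cause of these changes was not tested.

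Agt passed the trend with probe sets above the median only (0.045), without hours 20 to 25 (slope -0.033, adjusted p = 0.00013), and without the single arrays of hour 21, 22 or 45, and its second day was lower without hours 20 to 25 and 44 to 49 (-0.76, adjusted p = 0.0032). Ptgs2 lost its curvature with 3 h means (adjusted p = 0.086). Ptgis gained curvature with centred arrays (0.032), and without the array of hour 21 or 23, and its slope in the first day without the arrays of high beta-actin difference missed the threshold (0.0077 per hour, adjusted p = 0.051). On linear values the curvature of Edn1 turned to 965 intensity units and passed (adjusted p = 0.0032). The slope of Ece1, which did not pass, turned to 0.00014 with centred arrays, 0.00061 with a term for hours 52 to 55, 0.00060 without hours 20 to 25 and up to 0.00090 without single arrays (lowest -0.0016), and its day difference to 0.0017, 0.0052 without hours 20 to 25 and 44 to 49, and 0.0037 without single arrays (lowest -0.046). Of the single-gene values under alternatives, 362 kept their direction and side of the threshold. Without the block for hour of the cycle, the difference between the days passed for 4 genes as with it.

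With 1 array per hour, an event at a single hour cannot be separated from that culture or array. Values near the floor carry no order, so that Ednrb, Agtr1a and late Vip give only that they were not above background. The scaling of the values and the first 20 h are not known here.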
